A study of Mus musculus with 2 samples.

Results

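Collagens are the main structural proteins of the extracellular matrix. The genes whose symbols name a collagen chain (Col, a number, the letter a and a number) were taken as a family, as assigned by the platform annotation to probe sets with exactly 1 gene. There were 42 such genes, with 82 probe sets, among 18193 genes and 45037 probe sets that were not controls. Expression was measured in livers of mouse embryos at E14.5 on 2 single-colour Affymetrix arrays. One array carried RNA from a Prox1 f/f;Foxa3Cre liver sample, where Cre under the control of Foxa3, a gene of the endoderm and its derivatives, acts on a floxed Prox1 gene. The other carried wild-type RNA. Both samples have the strain label NMRI/C57Bl6, and the labels do not give the number of embryos in either. Prox1 is a homeodomain factor of early liver cells, and the comparison asks what differs in fetal liver when it is deleted.

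A collagen molecule is made of chains with a repeated Gly-X-Y motif that wind around each other into a helix, and many types need chains from more than 1 gene. Fibrillar collagens build banded fibres, FACIT collagens (fibril-associated collagens with interrupted triple helices) bind to the surface of those fibres, and type IV forms the sheet of basement membranes. In liver, stellate cells, portal fibroblasts and other cells of mesenchymal origin make most fibrillar collagen, endothelial cells contribute basement membrane chains, and hepatocytes are a known source of type XVIII. Whole fetal liver also holds many blood cells, so a difference in the number of collagen-making cells and a difference in RNA per cell cannot be told apart here.

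Each genotype was represented by 1 array, so there is no replicate error, no test between genotypes and no p-value, and every difference below is between these 2 samples. Signals are MAS5 signals on a linear scale. Values below a floor of 112.6 signal units, the median of the knockout array, were raised to it before taking log2, and a gene is given by its brightest probe set. A gene above the floor on 1 array only has a bound, written "at least", and its sign is fixed by which array that is. Log2 differences are given as knockout minus wild type. The median signal was 112.6 on the knockout array and 101.1 on the wild-type array. Genes of mean signal under 250 that were above the floor on both arrays had a median log2 difference of 0.12, so dim values leaned upwards. Bounds were more often upwards too: 812 genes were above the floor only on the knockout array and 364 only on the wild-type array. The brightest Prox1 probe set read 221.8 on the knockout array and 340.3 on the wild-type array, and whether its probes fall within the deleted part of the gene is unknown here. Xist read 365.7 and the Y-linked gene Eif2s3y read 1972 on the knockout array, against 11467 for Xist and 0.87 for Eif2s3y on the wild-type array. The arrays thus differed in sex-linked genes too, and the part of that in the collagen differences was not tested.

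Start regions of collagen genes at both ends of the range of differences are shown first. RefSeq windows (build GRCm38.p6) run from 250 bases before to 50 bases after a gene's start, and 18 of the 23 measured collagen genes had one. Letters in capitals mark 3 motifs: the TATA box letters TATAAA, the CCAAT box as CCAAT, and the GC box letters GGGCGG. Both strands were searched, so that the reverse forms (ATTGG for the CCAAT box, CCGCCC for the GC box) are capitals as well. Each line is read 5′ to 3′ on the strand of its gene. Col1a2 is shown because it encodes the second chain of type I, the type with the highest chain difference, and Col6a1 and Col6a3 are shown as chains of type VI that were higher together.
Col1a2: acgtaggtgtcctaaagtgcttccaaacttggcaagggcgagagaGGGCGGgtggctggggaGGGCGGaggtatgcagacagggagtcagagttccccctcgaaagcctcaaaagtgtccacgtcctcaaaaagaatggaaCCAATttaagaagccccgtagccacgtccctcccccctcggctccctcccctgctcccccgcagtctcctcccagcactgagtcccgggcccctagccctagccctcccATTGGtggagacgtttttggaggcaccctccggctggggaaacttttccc
Col6a1: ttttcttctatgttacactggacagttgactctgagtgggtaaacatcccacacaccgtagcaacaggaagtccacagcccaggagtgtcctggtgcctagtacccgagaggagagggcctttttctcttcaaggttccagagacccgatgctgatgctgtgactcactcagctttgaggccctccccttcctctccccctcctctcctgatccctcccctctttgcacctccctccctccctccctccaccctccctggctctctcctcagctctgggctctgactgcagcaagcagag
Col6a3: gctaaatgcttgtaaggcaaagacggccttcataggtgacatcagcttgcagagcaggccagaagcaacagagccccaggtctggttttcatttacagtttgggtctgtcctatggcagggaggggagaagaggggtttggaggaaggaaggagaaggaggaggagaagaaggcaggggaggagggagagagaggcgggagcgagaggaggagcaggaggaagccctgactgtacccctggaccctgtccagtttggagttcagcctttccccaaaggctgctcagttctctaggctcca
The Col1a2 window is chr6:4505368-4505667 on the plus strand, that of Col6a1 is chr10:76725995-76726294 on the minus strand and that of Col6a3 is chr1:90843922-90844221 on the minus strand. The Col1a2 window held a CCAAT box starting at -109, counted from the start site at 1, and another in reverse form at 1, with GC boxes at -205 and -188. The Col6a1 and Col6a3 windows held none of these letters, although their chains had log2 differences at least as high as that of Col1a2. Col6a2, the other main chain of type VI, is not printed. It had GC boxes in reverse form, at -67, -15 and -11 in 1 window and at -175 in another.

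Col18a1, the lowest collagen, has start sites far apart that give proteins with different N-terminal ends, and Col4a1 and Col4a2 start head to head, so that their windows share 78 bases. The Col18a1 windows and that of Col4a2 are shown for comparison with the chains above.
Col18a1 upstream start: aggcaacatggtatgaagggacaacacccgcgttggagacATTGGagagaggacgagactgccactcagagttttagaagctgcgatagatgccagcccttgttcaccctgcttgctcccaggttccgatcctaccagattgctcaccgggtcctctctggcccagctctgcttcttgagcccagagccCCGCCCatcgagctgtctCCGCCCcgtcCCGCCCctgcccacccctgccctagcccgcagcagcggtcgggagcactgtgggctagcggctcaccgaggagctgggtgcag
Col18a1 downstream start: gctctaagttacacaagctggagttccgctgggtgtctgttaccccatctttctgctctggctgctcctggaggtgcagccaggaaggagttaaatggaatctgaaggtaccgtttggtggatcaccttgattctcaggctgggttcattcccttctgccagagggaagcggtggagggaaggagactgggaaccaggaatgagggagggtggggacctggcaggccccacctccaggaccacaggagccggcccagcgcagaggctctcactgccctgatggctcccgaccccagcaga
Col4a2: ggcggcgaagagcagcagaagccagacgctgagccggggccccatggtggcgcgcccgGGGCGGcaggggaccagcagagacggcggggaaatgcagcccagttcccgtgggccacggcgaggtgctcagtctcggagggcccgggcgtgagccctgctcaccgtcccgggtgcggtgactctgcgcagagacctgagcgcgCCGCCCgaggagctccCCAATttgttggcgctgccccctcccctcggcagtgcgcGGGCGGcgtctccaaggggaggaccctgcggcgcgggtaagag
The upstream window of Col18a1 is chr10:77166481-77166780 and the downstream window chr10:77113656-77113955, both on the minus strand, and the Col4a2 window is chr8:11312555-11312854 on the plus strand. The upstream Col18a1 window held GC boxes in reverse form at -61, -43 and -33 and a reverse CCAAT box at -210, and the downstream window held none of the motifs. The Col4a2 window held GC boxes at -192 and 8, a reverse one at -48 and a CCAAT box at -32. In the printed windows no matches of different motifs share letters. Over all 32851 windows in the table, the TATA box letters occurred in 13.6%, the CCAAT box in 37.4% and the GC box in 35.7%. Of 7 windows of collagen genes that were at least 2-fold higher, from 6 genes, 0 held the TATA box letters, 2 held a CCAAT box and 5 held a GC box. These matches describe the letters only.

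Collagen genes as a family were higher on the knockout array. Of the 42 genes, 23 were measured. Of these, 17 were above the floor on both arrays, 5 only on the knockout array and 1 only on the wild-type array. Over all 11397 measured genes, 812 were above the floor only on the knockout array and 364 only on the wild-type array. At least 2-fold higher were 8 of 23, against a background of 3.27% of the 11397 measured genes of the arrays. At least 2-fold lower were 0 of 23, against 2.13% of all measured genes. Both shares are the background for the 2-fold counts by class or list below. The family's median log2 difference was 0.70, beside 0.03 over all measured genes, and 21 of 23 members lay above 0, beside 53.8% of all. At least 3-fold higher were 4 of 23 collagens, against 0.869% of all measured genes. The members past 2-fold were in the middle range of signal: they were 6 of 7 collagens with a mean signal between 250 and 1000, where 4.14% of genes were as high, and 2 of 6 between 1000 and 5000, where 1.3% were. None of 9 dimmer members was counted as 2-fold higher, against 5.08% of dim genes.

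**Figure D1:**
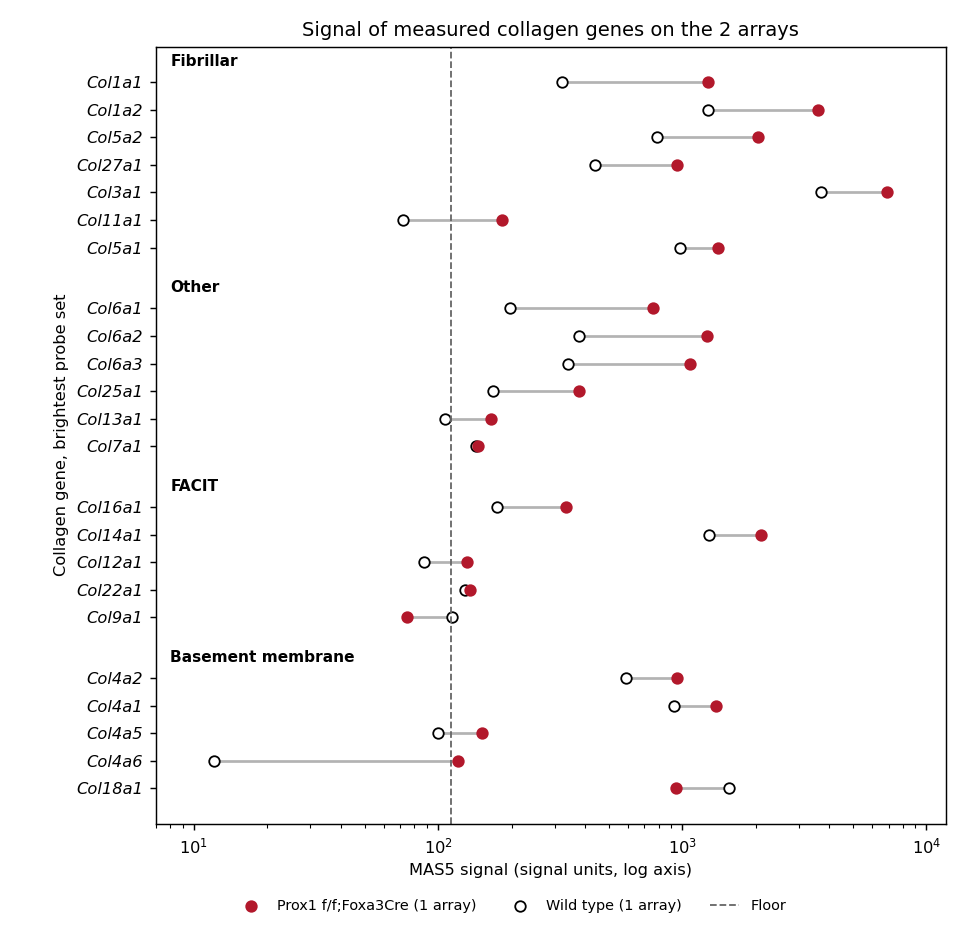
Signal of each measured collagen gene on the knockout array (filled) and the wild-type array (open), on a log axis, grouped by class, with the floor dashed. The filled point lies to the right in 21 of 23 genes, and Col18a1 and Col9a1 are the exceptions.

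Fibrillar chains were among the collagens with the highest differences. Of 11 fibrillar genes, 7 were measured, all 7 lay above 0 and 4 were at least 2-fold higher, with a median log2 difference of 1.11. Col1a1, which encodes the chain present in 2 copies in each type I molecule, read 1278 on the knockout array and 323 on the wild-type array. It was 3.96-fold higher, and 47 of the 11397 measured genes had a larger log2 difference. Its second probe set read 579.6 and 148 on the knockout and wild-type arrays, and the log2 differences of 1.99 and 1.97 were nearly equal. Col1a2, the partner chain, read 3609 on the knockout array and 1271 on the wild-type array and was 2.84-fold higher. Its other probe set above the floor had a log2 difference of 1.56, beside 1.51 on the brightest, so both Col1a2 values lay below both Col1a1 values. The log2 difference of Col1a1 exceeded that of Col1a2 by 0.48.

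Type III and type V chains, which assemble into the same fibres as type I, were also higher. Col3a1, the chain of the reticulin fibres of liver, had the brightest collagen probe set of the arrays. It read 6921 on the knockout array and 3689 on the wild-type array, 1.88-fold higher. The dimmer Col3a1 probe set had a larger log2 difference, of 1.31 beside 0.91, so whether Col3a1 passes 2-fold depends on the probe set: over the median of both it did, at 1.11. Col5a2, a chain of type V, which starts the assembly of fibrils, read 2034 on the knockout array and 792 on the wild-type array. It was 2.57-fold higher, and its second probe set 3.56-fold. Col5a1, the other main chain of type V, read 1403 on the knockout array and 978 on the wild-type array and was 1.44-fold higher. The 3 Col5a1 probe sets ran from 0.39 to 0.69 on the log2 scale and the 2 Col5a2 probe sets from 1.36 to 1.83, so the partner chains did not overlap. For scale, the robust SD of the log2 difference was 0.23 over all genes of mean signal between 1000 and 5000. It was 0.34 between 250 and 1000, the range of the dimmer probe sets of both genes. This SD is a spread across genes and not a measurement error. In the RefSeq table Col3a1 and Col5a2 are neighbours on chromosome 1 with no protein-coding gene between them.

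The other fibrillar chains, several of them known mainly from cartilage, were measured on at least 1 array in 2 cases, Col27a1 and Col11a1. Col27a1 read 949.6 on the knockout array and 438 on the wild-type array on its brightest probe set, 2.17-fold higher. Its other probe set read 285 and 264 on the knockout and wild-type arrays, a log2 difference of 0.11, and the median over both, at 0.61, was under 2-fold, as was the brightest at 0.96 when 100 was added to the signals. Col11a1 read 183 on the knockout array and was below the floor at 72.2 on the wild-type array, at least 1.62-fold higher. Its second probe set was also above the floor on the knockout array only. Col2a1, the main cartilage collagen, read 52.0 on the knockout array and 13.0 on the wild-type array, below the floor on both, as were Col5a3, Col11a2 and Col24a1. Of 15 cartilage markers, 11 were below the floor on both arrays, the cartilage proteoglycan Acan (13.7 and 35.7 on the knockout and wild-type arrays) and the matrilins Matn1, Matn3 and Matn4 among them. Hapln1, which was measured, was at least 1.55-fold higher (175 on the knockout array and 50.5 on the wild-type array). Sox5 was at least 1.41-fold lower. The summed signal of the 15 cartilage markers was 3338 on the knockout array and 2923 on the wild-type array. Most of each sum was Sox6, at 2647 on the knockout array and 2319 on the wild-type array, so the sums mainly describe that gene.

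**Figure D2:**
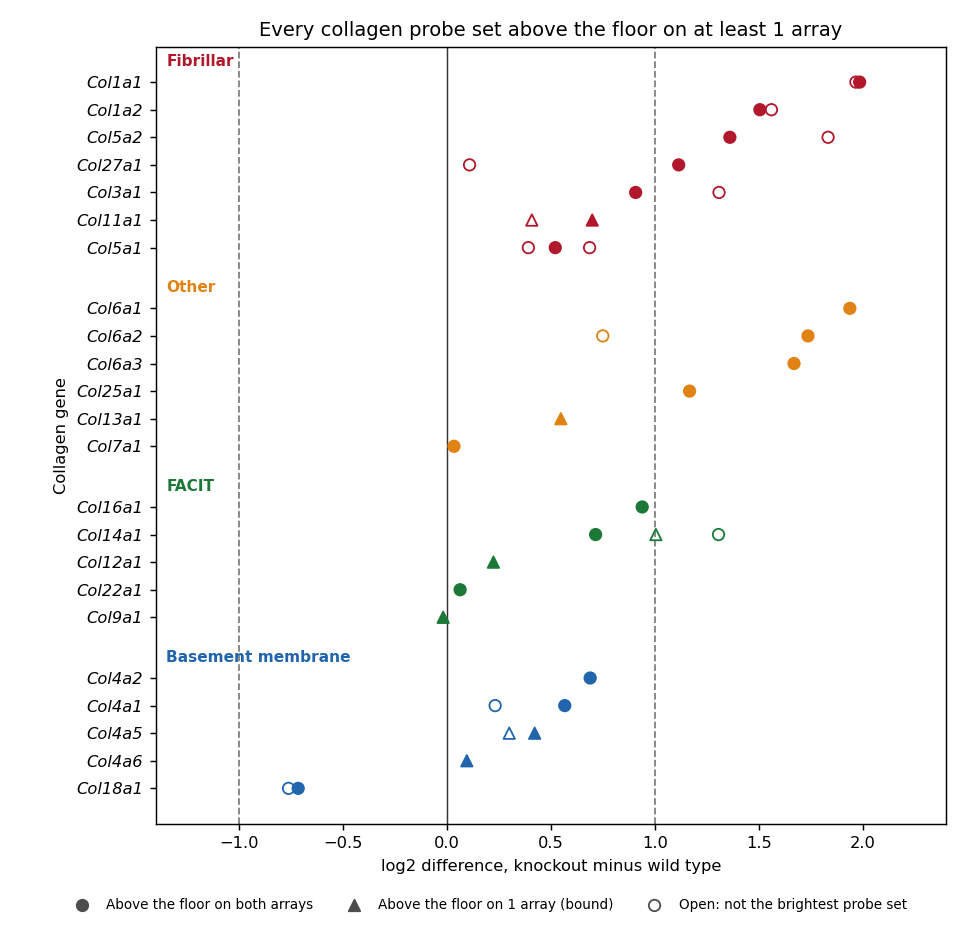
The log2 difference (knockout minus wild type) of every collagen probe set above the floor on at least 1 array, by gene and class. Filled symbols are the brightest probe set of a gene, triangles are bounds, and dashed lines mark 2-fold; all probe sets of a gene lie on the same side of 0.

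Probe sets of a gene had the same direction throughout the family. For 12 collagen genes more than 1 probe set was above the floor on at least 1 array, and in 12 of 12 all lay on the same side of 0, beside 2803 of 5269 such genes over the arrays. Their sizes differed more: the median distance between the highest and lowest probe set of a gene was 0.31 on the log2 scale for collagens and 0.33 for all genes, and the widest among collagens was 1.01, for Col27a1. Counted by probe set, 14 of 37 were at least 2-fold higher, against 2.69% of named probe sets, and 0 were at least 2-fold lower, against 1.76%. Probe sets of a gene share the RNA sample and are not replicates. For Col4a5 and Col11a1 the counted probe sets were above the floor on the knockout array only, so the floor fixed their sign. Genes over the arrays mostly lay nearer 0 than the collagens, where signs differ more readily, so the counts of shared direction are not alike.

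Type VI collagen, which forms beaded filaments close to cell surfaces, was higher in all 3 of its main chains. Col6a1 read 756.6 on the knockout array and 197 on the wild-type array and was 3.83-fold higher. Col6a2 read 1261 on the knockout array and 378 on the wild-type array, 3.33-fold higher. Col6a3, the longest chain, read 1081 on the knockout array and 339.8 on the wild-type array, 3.18-fold higher. Their log2 differences of 1.94, 1.74 and 1.67 lay within 0.27 of each other. The robust SD was larger, at 0.34, over genes of mean signal between 250 and 1000 above the floor on both arrays. The exception was a second Col6a2 probe set, at 826 on the knockout array and 491 on the wild-type array, with a log2 difference of 0.75. The additional chains Col6a4 and Col6a5 were below the floor on both arrays. Col6a1 and Col6a2 are neighbours on chromosome 10 in the RefSeq table, and Col18a1, with 2 protein-coding genes between it and Col6a1, differed in the other direction.

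The remaining collagens outside the named classes are anchoring, transmembrane and short-chain types. Of 14 such genes, type VI included, 6 were measured and 4 were at least 2-fold higher, with a median log2 difference of 1.42. Col25a1, a transmembrane collagen, read 377 on the knockout array and 168 on the wild-type array, 2.25-fold higher. It was under 2-fold when 100 was added to the signals, at 0.83, and under a floor at the 60th percentile, at 0.99. Col13a1, another transmembrane collagen, read 165 on the knockout array and 106 on the wild-type array, at least 1.46-fold higher. Col7a1, the collagen of the anchoring fibrils beneath epithelia, was nearly equal, at 146 on the knockout array and 143 on the wild-type array. The network collagens Col8a1, Col8a2 and Col10a1, the hemidesmosome collagen Col17a1, and Col23a1 and Col26a1 were below the floor on both arrays.

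FACIT collagens lay between small and nearly 2-fold differences. Of 9 genes, 5 were measured and 0 were at least 2-fold apart, which is near the background, with a median log2 difference of 0.22. Col14a1, a FACIT collagen of dense connective tissue, read 2109 on the knockout array and 1285 on the wild-type array, 1.64-fold higher. Its other probe sets were further apart: the next read 459.8 and 186 on the knockout and wild-type arrays, 2.47-fold higher, and the third was at least 2.01-fold higher. Col16a1 read 336 on the knockout array and 175 on the wild-type array and was 1.92-fold higher. Col12a1, a relative of Col14a1, read 131 on the knockout array and 87.3 on the wild-type array, at least 1.17-fold higher. Col22a1, known from tissue junctions, was nearly equal at 135 on the knockout array and 129.5 on the wild-type array. Col9a1, a cartilage chain, read 74.4 on the knockout array and 114 on the wild-type array, barely above the floor, so its log2 bound was -0.02. Col9a2, Col9a3, Col19a1 and Col20a1 were below the floor on both arrays.

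No measured basement membrane chain was counted as at least 2-fold apart, as for most genes of the arrays, and 1 of 5 lay below 0. Of 8 genes, 5 were measured, 0 were counted as at least 2-fold apart and 4 lay above 0. The median log2 difference was 0.42, which was the bound of Col4a5. Over all measured genes 3.27% were at least 2-fold higher and 2.13% lower, so 0 of 5 is near the background. Col4a5 and Col4a6 were above the floor on the knockout array only, which fixed their sign. Col4a1 read 1372 on the knockout array and 926 on the wild-type array and was 1.48-fold higher. Col4a2, its partner in the type IV molecule of nearly all basement membranes, read 953 on the knockout array and 591 on the wild-type array, 1.61-fold higher. The log2 differences of these head-to-head genes, 0.57 and 0.69, lay 0.12 apart, and a dimmer Col4a1 probe set stood at 0.23. Col4a5 read 151 on the knockout array and 99.9 on the wild-type array, at least 1.34-fold higher. Col4a6 read 120.3 on the knockout array and 12.1 on the wild-type array, at least 1.07-fold higher. These chains are X-linked neighbours, both only just above the floor. The kidney chains Col4a3 and Col4a4, and Col15a1, a relative of Col18a1, were below the floor on both arrays.

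Col18a1, whose C-terminal end is released as endostatin, was the only measured collagen that was lower on the knockout array by more than a bound near 0. It read 945 on the knockout array and 1552 on the wild-type array, 1.64-fold lower, with a log2 difference of -0.72. Its second probe set read 811 on the knockout array and 1376 on the wild-type array, a log2 difference of -0.76. Of the measured genes of the arrays, 423 had a lower log2 difference than Col18a1. Beside it stood genes of hepatocytes, 6 of 8 measured below 0 with a median log2 difference of -0.20. Among them the plasma protein Ahsg read 788 on the knockout array and 10437 on the wild-type array, while albumin (Alb) read 33186 and 32396 on the knockout and wild-type arrays. The part of these genes' cells in the Col18a1 difference was not tested.

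**Figure D3:**
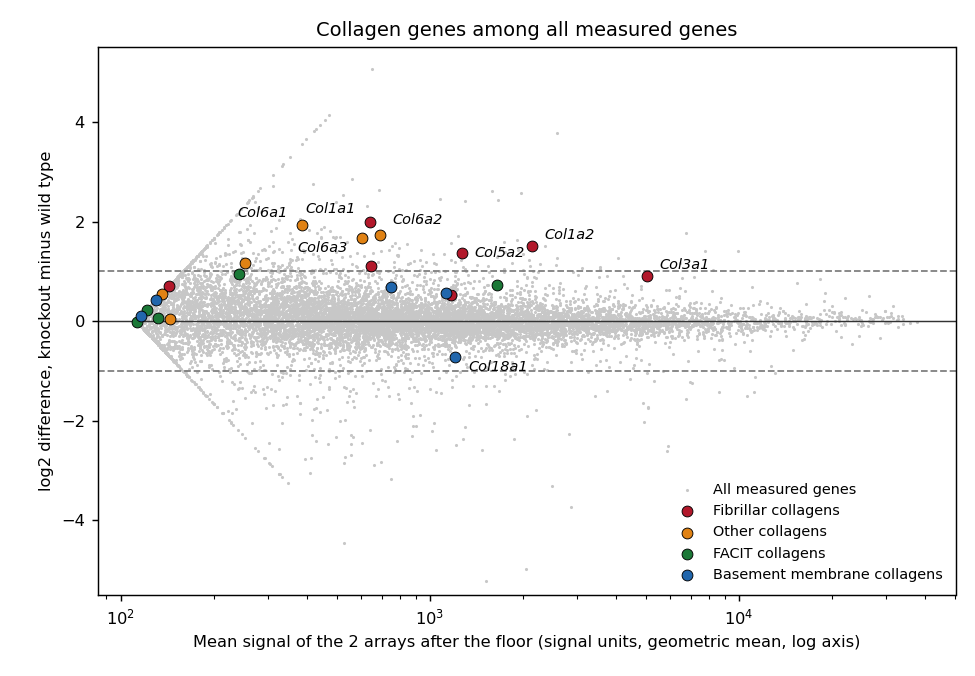
The log2 difference (knockout minus wild type) of each measured gene against its mean signal, with the 23 measured collagens coloured by class and dashed lines at 2-fold. Col1a1, Col1a2, Col5a2 and the type VI chains lie above the upper line at mid signals, and Col18a1 lies below 0.

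The 19 collagen genes not measured were covered by 36 probe sets, with signals from 2.27 to 104.8, of which 0 were above the floor on any array. No direction was read for them. With 15 of the 42 genes covered by 1 probe set, a probe set that works poorly cannot be told apart from low expression.

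Genes whose products fold, modify and cross-link collagen were partly higher. The enzymes and chaperones of the endoplasmic reticulum had 18 measured members, of which 2 passed 2-fold upwards and 0 downwards, and a median log2 difference of 0.33. The collagen chaperone Serpinh1 (HSP47) read 4024 on the knockout array and 1665 on the wild-type array, 2.42-fold higher. The prolyl 3-hydroxylase P3h2 read 262 on the knockout array and 48.1 on the wild-type array, at least 2.33-fold higher. Sparc, a collagen-binding matrix protein, was 1.88-fold higher and the lysyl hydroxylase Plod2 was 1.74-fold higher. Below 0 were 7 of the 18, among them P4hb and Ppib, which serve secreted proteins in general, at -0.23 and -0.09 on the log2 scale. Ctage5, Colgalt1 and P3h1 stood at -0.31, -0.28 and -0.26, though Colgalt1 and P3h1 each had another probe set above 0. Of 7 measured genes of cleavage and cross-linking, 2 passed 2-fold upwards and 0 downwards, with a median of 0.85. These were the lysyl oxidase relative Loxl1 (357 on the knockout array and 110.3 on the wild-type array, at least 3.17-fold) and Pcolce, an enhancer of procollagen cleavage (1939 on the knockout array and 828 on the wild-type array, 2.34-fold). Lysyl oxidase itself (Lox) was 1.80-fold higher and Loxl3 at least 1.91-fold, while Pcolce2, a relative of Pcolce, was 1.64-fold lower (249.9 on the knockout array and 409 on the wild-type array) and the C-proteinase Bmp1 1.19-fold lower.

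Proteoglycans and receptors that bind collagen were also read. All 6 measured small leucine-rich proteoglycans, which coat collagen fibrils, lay above 0, with a median of 0.67 and 2 at least 2-fold higher. Lumican (Lum) read 3976 on the knockout array and 1406 on the wild-type array, 2.83-fold higher. Biglycan (Bgn) was 2.55-fold higher, Fmod 1.66-fold and decorin (Dcn) 1.52-fold. Of 8 measured collagen receptors, 1 passed 2-fold upwards, with a median of 0.28. That was the receptor tyrosine kinase Ddr1, 3.70-fold higher on its brightest probe set, with 4 probe sets above the floor running from 0.14 to 1.89 on the log2 scale. Ddr2 was at least 1.62-fold and the platelet receptor Gp6 at least 1.999-fold higher, and Adgrg1 was 1.78-fold lower. Of 6 measured genes of collagen breakdown, 1 was at least 2-fold higher, the gelatinase Mmp2 at 2.04-fold, with a median of 0.43. Mmp8 was 1.70-fold, Prep 1.43-fold and the membrane collagenase Mmp14 1.27-fold higher, with Mmp14 probe sets on both sides of 0, from -0.07 to 0.34 on the log2 scale.

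Markers of mesenchymal cells moved beside the collagens. Of 22 stellate and mesenchymal genes without collagens, 20 were measured, 8 passed 2-fold upwards and 0 downwards, and 18 lay above 0. The median log2 difference was 0.91. Their summed signal was 25964 on the knockout array and 13515 on the wild-type array. The cadherin Cdh11 was 3.25-fold, the transcription factor Hand2 3.24-fold, the receptor Pdgfrb 3.22-fold and the pericyte gene Rgs5 3.01-fold higher. Of other genes in the list, Lhx2 was 2.48-fold, Reln 1.85-fold and the retinol esterase Lrat 1.35-fold higher. Ngfr was 2.18-fold higher, with probe sets from 0.01 to 1.13 on the log2 scale. The 2 below 0 were desmin (Des), at 151 on the knockout array and 154 on the wild-type array, and Nes, at least 1.56-fold lower. Thy1 was below the floor on both arrays. The family median of the collagens, 0.70, lay below the mesenchymal median, and fibrillar collagens, at 1.11, lay above it. The part of these cells in the collagen differences was not tested.

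Other cell types that make collagen gave smaller values. Of 15 endothelial genes, all measured, 0 were at least 2-fold apart and 13 lay above 0, with a median of 0.37. Their summed signal was 7627 on the knockout array and 6471 on the wild-type array, and Plvap, Pecam1, Flt1 and Erg were 1.48-fold, 1.46-fold, at least 1.45-fold and 1.41-fold higher. Of 9 measured mesothelial genes, 1 was at least 2-fold higher, Krt19, which bile duct cells also express (at least 8.72-fold), with a median of 0.44. Msln was below the floor on both arrays, Wt1 was at least 1.35-fold higher, and the summed mesothelial signal was 3104 on the knockout array and 1920 on the wild-type array. Without Krt19 (982 on the knockout array and 70.5 on the wild-type array) the sums were 2121 and 1849.7 on the knockout and wild-type arrays. Muscle genes had 4 of 12 measured, with a median of -0.14, Actc1 being at least 1.71-fold lower, and Myod1 and Myog below the floor on both arrays. Of 9 epidermal and gut genes, 2 were measured, Vil1 at least 2.30-fold higher and Krt20 1.51-fold lower.

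Other matrix families had medians above that of all genes. Laminin chains, the other polymer of basement membranes, had 7 measured members, with a median of 0.58. All lay above 0, but 4 were above the floor on the knockout array only, which fixed their sign. At least 2-fold higher were 2, Lamb1 (5.76-fold) and Lama1 (at least 2.76-fold). Of 12 measured genes of other fibrous matrix, 4 passed 2-fold upwards and 0 downwards, with a median of 0.54, led by versican (Vcan, 4.06-fold) and fibrillin 2 (Fbn2, 2.31-fold). Probe sets ran from 0.93 to 2.53 on the log2 scale for Lamb1 and from 0.74 to 2.02 for Vcan. Fibronectin (Fn1) was 1.37-fold higher. Whether the collagens differ from these families was not tested, as there is 1 array per genotype.

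**Figure D4:**
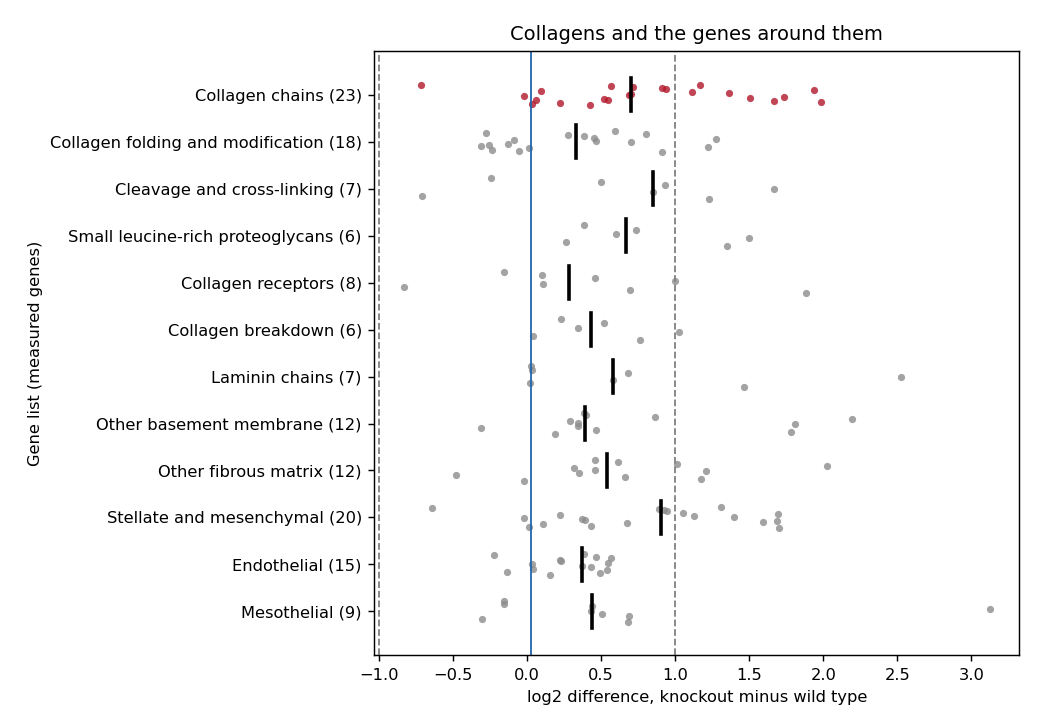
The log2 difference (knockout minus wild type) of each measured member of the collagen family and of lists of genes around it, with the number measured in brackets, the median as a black bar, the median over all measured genes as a blue line and 2-fold as dashed lines. The collagen median is 0.70 and the stellate and mesenchymal median 0.91, beside 0.03 over all genes.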

How the data were processed

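The authors deposited linear intensity values of both arrays, made with MAS5 per the submitters' processing notes (no version given there). Detection calls were not used. The 2% trimmed mean was 500.0 on both arrays, so the values were used as deposited. MAS5 subtracts mismatch signal probe by probe, so dim probe sets scatter widely, and the number of arrays limits the precision. Of 45101 probe sets, 64 controls were left out. Gene symbols came from the platform annotation, checked by gene identifier against a RefSeq table (GRCm38.p6), which changed 0 symbols, and 0 probe sets with several symbols named a collagen. Each gene was represented by the probe set whose mean log2 signal was highest, with a floor at the 50th percentile, and counted at 2-fold. Basement membrane collagens were types IV, XV and XVIII. The collagens, lists and motifs were chosen with earlier results of these data known, as were the rules for naming: every measured collagen and, of each list, up to 4 members with the largest absolute difference, with defining markers. Other genes named were chosen after their values were seen. Alternatives covered the floor, scaling, gene summary, pseudocount and size. The tools were matplotlib 3.10.9, numpy 2.4.6, pandas 2.3.3, Python 3.11.15, statsmodels 0.14.6 and scipy 1.17.1, and the counting was tested on simulated arrays.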

Additional observations from a re-analysis of the deposited data

How the results depend on the processing

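The direction of the collagen median and of each class median stayed above 0 under all 9 alternatives of floor, scaling, summary and pseudocount. Of the 8 collagens at least 2-fold higher, 6 were so under each of these (Col1a1, Col1a2, Col5a2, Col6a1, Col6a2 and Col6a3), while Col25a1 and Col27a1 were so under 7. Of 23 measured collagens, 21 kept their sign, and Col7a1 and Col22a1, nearly equal on the arrays, did not. Col4a6 and Col11a1, given as bounds above, passed 2-fold under a 30th-percentile floor and without floor or filter. Their log2 differences were 1.45 and 1.34 under that floor, and 3.32 and 1.34 without floor or filter. Counts of collagens at least 2-fold higher and lower were 16 and 2 of 42 without floor or filter. Of 23 they were 4 and 0 at 3-fold, and 13 and 1 at 1.5-fold. Over all genes the counts were 2362 and 1468 of 18193 without floor or filter, and 789 and 414 of 14784 under a 30th-percentile floor. Of 11397 they were 99 and 102 at 3-fold and 1125 and 594 at 1.5-fold. With 100 added to the signals, 235 of 11397 genes were at least 2-fold higher. Under a 30th-percentile floor the median log2 difference was 0.58 for all collagens, 0.91 for fibrillar, 0.57 for basement membrane and 0.56 for other collagens, and under a 60th-percentile floor 0.99, 1.24, 0.57 and 1.70, with 0.77 for FACIT. These floors change how many genes are measured, 38 and 15 collagens against 23. Without floor or filter the median was 0.32 for basement membrane and 0.90 for other collagens. With 100 added it was 0.96 for fibrillar and 1.13 for other collagens, and as the median over probe sets it was 1.21 for other collagens. The cause of these shifts was otherwise not tested. A median was taken to have moved where it changed by 0.1 or more. Quantile, lowess and median scaling each left 8 collagens at least 2-fold higher. No paired analysis was possible because each genotype has 1 array. Signals near the floor, as for 9 measured collagens of mean signal under 250, give no reliable size.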

Other observations

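Proteins that link epithelia to the matrix beneath them were among the genes furthest apart in the list of other basement membrane genes, of which 12 were measured, 3 passed 2-fold upwards and 0 downwards, with a median log2 difference of 0.39. Fras1 and Frem2, which form a complex with Frem1 at epithelial basement membranes, read 610.2 and 575.5 on the knockout array, against 134 and 164 on the wild-type array. Fras1 was 4.57-fold and Frem2 3.51-fold higher, and Frem1 read 148 on the knockout array and 57.6 on the wild-type array, at least 1.32-fold higher. The other Fras1 probe set had a log2 difference of 1.69. Fibulin 1 (Fbln1) was 3.43-fold higher, with probe sets from 0.30 to 1.78 on the log2 scale, and Npnt was 1.82-fold higher. Of the widely expressed members, Nid2 was 1.27-fold higher. Nidogen 1 (Nid1) was 1.23-fold higher by the brightest probe set, but the Nid1 probe sets went both ways, from -0.32 to 0.29 on the log2 scale. Perlecan (Hspg2) was 1.14-fold higher by the brightest probe set, with another at a log2 difference of 0.87.

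Genes of granulocytes, blood cells that are not a main source of collagen, were also higher on the knockout array. Of 12 measured, 7 were at least 2-fold higher and all 12 lay above 0, with a median log2 difference of 1.09. Macrophage genes, 10 measured, had a median of 0.37 with 1 at least 2-fold higher, and erythroid genes, 7 measured, a median of -0.01 with 0 at least 2-fold apart.

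Of 8 measured bile duct genes, 4 passed 2-fold upwards and 0 downwards, with a median of 0.86. Of the 8, 6 were above the floor on the knockout array only, which fixed their sign. The 4 past 2-fold were Krt19, Cldn7 (at least 6.34-fold), Cldn6 (at least 5.67-fold) and Epcam (at least 2.42-fold). Aqp1 was 1.37-fold higher, Krt7 at least 1.01-fold higher and Tspan8 1.09-fold lower. Onecut1 and Cftr were below the floor on both arrays. Sox9, which bile duct and cartilage cells share, read 127 on the knockout array and was below the floor at 48.5 on the wild-type array. It was at least 1.13-fold higher, with 1 of its 3 probe sets above the floor.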
